A study of Caenorhabditis elegans with 15 samples.

Results

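The RNA that control immunoprecipitations (IPs) of Caenorhabditis elegans lysate carried down was compared with the RNA of the lysate itself. Members were the 6930 of 22548 probe sets, array controls left out, whose mean over the input arrays was log2 6 or more, and the 6 control IP arrays were pooled against the 3 input arrays. The other 15618 probe sets lay under log2 6. Just inside the threshold were eif-2Bepsilon at log2 6.0009 and F26A1.8 at 6.0011, and just outside it mtr-4 at 5.9986 and F17H10.1 at 5.9988.

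The control IPs were of 2 kinds, with 3 arrays each. The MYC IPs used an antibody against MYC on lysate of a tagged strain, which carries no MYC tag. That strain has the allele gld-1(q485) and the integrated transgene ozIs2, which encodes GLD-1 fused to GFP and FLAG. The N2 IPs used an antibody against FLAG on lysate of wild type N2, which has no tag. The inputs were total RNA of the tagged strain, so the N2 IPs were set against the RNA of another strain. All lysates were of whole worms at the young adult stage, and every IP eluate also received 10 µg of RNA from mouse brain as an aid to precipitation. The study used these IPs as controls for IPs of GLD-1, and those 6 tagged FLAG IP arrays enter here as values beside a few named genes. The promoter of the transgene is not given in the sources used here, nor is the set that the inputs belong to.

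Beads, tubes and antibodies hold some RNA in any RNA IP, and this background is what a specific signal is read against. If RNA stuck in proportion to its abundance, a transcript's level in the lysate would give its level in the control IP. Transcripts can depart from that for many reasons, among them the ribosomes and proteins that an mRNA carries, its compartment in the cell, its length, and how well array probes tell it from related RNA. Since each lysate is of a whole animal, fewer cells of a type and less RNA per cell cannot be told apart.

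Values are the deposited GCRMA values on the log2 scale, where 1 unit is a 2-fold step of signal. The input arrays held markers of germline, muscle, intestine, hypodermis and neuron, though not every marker was a member. All 7 germline and oocyte markers were members, at 9.15 to 12.76 in input. The 3 muscle markers were at 7.44 to 12.76, the pharynx markers myo-1 and myo-2 at 6.19 to 8.11 and the 4 neuron markers at 6.75 to 10.06. Of the 6 intestine markers 5 were members, reaching 13.07, and ges-1 at 5.98 was not. Of the 3 hypodermis markers 2 were members, reaching 10.76, and dpy-7 at 5.48 was not. The sperm markers spe-9, spe-11 and spe-38 were between 2.43 and 6.33 while major sperm protein probe sets reached 13.36. Pearson's r over the members was 0.991 between input 1 and input 3, 0.943 between input 1 and input 2, and 0.946 between input 2 and input 3, so input 2 lay apart from the others. The labels do not say that replicates came from separate cultures, so p-values measure only the spread between these arrays, and the small number of arrays limits the precision.

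The control IP arrays carried far less worm signal than the inputs, and each carried a different amount. At least log2 5 was reached by 193, 365 and 818 members on MYC arrays 1 to 3 and by 434, 314 and 221 members on N2 arrays 1 to 3. The members at input log2 11 or more had medians of 4.68, 5.84 and 7.34 on the MYC arrays and of 6.04, 5.45 and 4.82 on the N2 arrays. The spread among arrays of a kind was therefore wider than the gap between the kinds. Each array also has a lowest value that many probe sets share, and a value there is only a bound. Within 0.1 of it lay 33.03, 21.20 and 6.62% of members on the MYC arrays and 17.01, 20.1 and 28.3% on the N2 arrays. On all 6 arrays at once, 245 members were at the lowest value, all with input under log2 9.

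Signal in the control IPs followed abundance, but not along a straight line. The regression of the control IP mean on the input mean had a slope of 0.451, an intercept of -0.46, an R2 of 0.651 and a residual SD of 0.531. Fitted array by array, the slope was 0.292, 0.468 and 0.727 in the MYC IPs and 0.509, 0.396 and 0.312 in the N2 IPs. The mean slope was 0.496 ± 0.219 in the MYC IPs and 0.406 ± 0.099 in the N2 IPs (SD, n = 3 each), and the 2 sets of slopes overlapped. A slope under 1 means that 2 transcripts stood closer together in the control IPs than in input. The slope was 0.722 over members at input log2 8 or more and 1.13 at log2 10 or more, so the compression was among the dimmer transcripts.

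The medians by abundance show the bend. The 1722 members with input between log2 6 and 7 had a median control IP value of 2.70, close to the lowest value of the arrays. It was 2.82 for input from 7 to 8, 3.03 from 8 to 9, 3.36 from 9 to 10 and 3.91 from 10 to 11. Above that it climbed faster, to 4.79 for the 211 members from 11 to 12, 6.25 for the 173 from 12 to 13 and 7.54 for the 88 members from 13 up. Each array was therefore given its own smooth curve (loess) over the members, and the distance of a probe set from that curve, in log2 units, is its deviation. The level of a probe set depends on its probes in IPs and input alike, so a deviation speaks of a probe set and not of an amount of RNA.

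**Figure D1:**
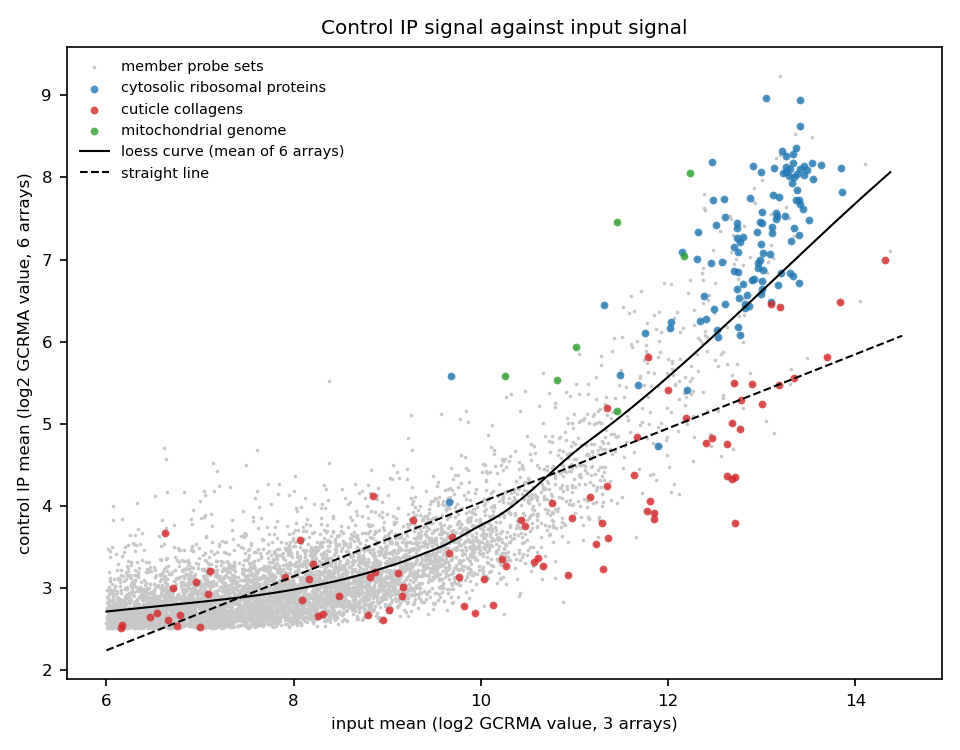
Mean over the 6 control IP arrays (vertical axis, log2 GCRMA value) against the mean over the 3 inputs (horizontal axis, log2 GCRMA value) for the 6930 members, with the loess curve (solid) and the straight line with slope 0.451 (dashed). Ribosomal protein and mitochondrial genome probe sets lie mostly over the curve and cuticle collagens mostly under it; no member reached its input level.

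No member was as high in the control IPs as in input. The mean over the control IPs was 1.92 to 8.93 units under the input mean, with a median gap of 4.95. Deviation is thus a distance within a weak signal: a probe set far above the curve fell less from input than the curve gives for its input signal.

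A member was called when its deviation was at least 1 unit, on the same side, with a Benjamini-Hochberg adjusted p under 0.05 in limma, in the MYC and in the N2 IPs. Above the curve in both kinds were 107 members, 1.54% of those tested, and below it 49, or 0.707%. Every called member lay on its side on all 6 arrays. The median deviation was 1.34 (range 1.03 to 2.45) for those above and -1.36 (range -2.53 to -1.03) for those below. Both kinds are set against the same 3 inputs, so an error of an input value moves both. Among the 472 members at input log2 11 or more, 55 were above (11.7%) and 40 below (8.47%), so calls were commoner among abundant transcripts, where the spread around the curve is wider.

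The groups of genes on the 2 sides differed. Above the curve lay ribosomal proteins, transcripts of the mitochondrial genome, eef-1A.1, actins and some major sperm protein and histone probe sets. Below it lay cuticle collagens above all. The 107 members above held 96 with a single gene symbol, for 93 genes, and 9 with several symbols. The 49 below held 36 with a single symbol, for 35 genes, and 13 with several. The curve itself matters for the brightest members: the median deviation of the 88 members from log2 13 up was 0.65. A natural spline, which bends more sharply and was chosen after that was seen, left 0.28 there and called 89 members above (1.28%) and 45 below (0.649%), of which 80 and 40 were the same members. The straight line called 245 above (3.54%) and 22 below (0.317%), sharing 95 and 11.

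eef-1A.1, which encodes translation elongation factor 1A and brings charged tRNA to the ribosome, was among the farthest above the curve. Its probe set 171789_x_at measured 8.31, 9.34 and 10.79 in the MYC IPs and 9.72, 8.92 and 8.35 in the N2 IPs, against 13.07, 13.21 and 13.30 in input. The control IP values followed the amount of signal on each array and lay under every input. The deviation was 2.33 ± 0.12 (SE) in the MYC IPs, with adjusted p = 8.9e-05, and 2.50 ± 0.12 in the N2 IPs, with adjusted p = 5.97e-05 (limma). A second probe set of the gene, 188725_s_at, also lay above, by 1.23 and 1.36.

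Cytosolic ribosomal proteins build the subunits that translate mRNA, and their messages are short and abundant. Their 113 members, 68 of the large and 45 of the small subunit, had a median deviation of 0.72, against -0.08 over all members. Their median input was 12.99. At such abundance the median over all members was higher too, 0.15 for input from log2 12 to 13 and 0.65 from 13 up. Of the 113, 29 were called above (19 large and 10 small), where 1.54% of all members were, and 0 below. Almost all were abundant: 111 had input at log2 11 or more and 28 of those were above, where 11.7% of all members as abundant were. With the spline the count was 14, where 7.2% of members as abundant were above, and the median was 0.43, and with the straight line 100 were above. The ribosomal median was over 0 under all 3 curves, while the count turned on how the curve runs through the brightest members. With the spline, all members had a median of -0.002 from log2 12 to 13 and of 0.28 from 13 up.

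The small, basic large-subunit protein gene rpl-41.2 was the highest of them. It measured 8.05, 9.07 and 10.68 in the MYC IPs and 9.43, 8.49 and 8.10 in the N2 IPs, against 12.88, 13.10 and 13.15 in input. Its deviations of 2.28 ± 0.10 and 2.34 ± 0.10 (SE) passed the test with adjusted p = 6.91e-05 and 4.83e-05 (limma). rps-23, for a protein near the decoding centre of the small subunit, had 7.29, 8.39 and 10.00 in the MYC IPs and 8.52, 7.91 and 6.99 in the N2 IPs, against 12.48, 12.36 and 12.57 in input. rps-25 had 8.10, 9.33 and 10.75 in the MYC IPs and 9.36, 8.64 and 7.47 in the N2 IPs, against 13.27, 13.24 and 13.70 in input. Both lay well over the curve on every control array, rps-23 by 2.21 and 2.05 and rps-25 by 2.00 and 1.78 in the MYC and N2 IPs.

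Not all ribosomal protein members did so. The lowest of the large subunit was rpl-23A.1 with a deviation of -0.73, and the lowest of the small subunit rps-10 with -0.33, neither of them called. Of the 113, 100 had a deviation over 0 and 13 under it. The mitochondrial ribosome, whose proteins are made in the cytosol but work in mitochondria, had none called among 59 members and a median of -0.09. Translation factors had a median of -0.11 over 50 members, with 3 above (2 probe sets of eef-1A.1 and 1 of pab-1) and 0 below. All 3 were among the 15 at input log2 11 or more, where 11.7% of all members as abundant were above.

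The mitochondrial genome stood out with 5 of its 7 members above the curve, where 1.54% of all members were, and a median deviation of 1.30. Of the 5 at input log2 11 or more 4 were, where 11.7% of all members as abundant were. These transcripts encode core subunits of the respiratory chain and are made and translated inside mitochondria, apart from cytosolic ribosomes. COX1, a core subunit of cytochrome c oxidase, had 6.87, 8.24 and 9.002 in the MYC IPs and 7.53, 6.92 and 6.21 in the N2 IPs, against 11.67, 11.09 and 11.62 in input. Its deviation was 2.75 ± 0.12 (SE) in the MYC IPs and 2.06 ± 0.12 in the N2 IPs, with adjusted p = 6.91e-05 and 1e-04 (limma). COX3, another subunit of the oxidase, had 6.76, 8.63 and 9.66 in the MYC IPs and 8.52, 7.82 and 6.93 in the N2 IPs, against 12.37, 11.73 and 12.61 in input.

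The deviations of COX3 were 2.26 and 2.23 in the MYC and N2 IPs. ATP6, of the ATP synthase, lay above by 1.74 and 1.55, ND4, of complex I, by 1.34 and 1.27, and COX2 by 1.31 and 1.23. CYTB, cytochrome b, was over the curve by 1.25 and 0.88 and missed the size set for a call in the N2 IPs, though the spline called it. ND1 was the exception, at 0.13 and 0.09, and had 4.32, 5.53 and 6.39 in the MYC IPs and 5.31, 5.07 and 4.34 in the N2 IPs, against 11.52, 10.95 and 11.89 in input.

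The list of respiratory chain subunits encoded in the nucleus, which are made in the cytosol and imported, had 0 called of 52 members. Its median was -0.15. The list does not hold ndub-3, which was called below the curve. Mitochondrial transcripts also lay above the curve in the IPs of tagged GLD-1: COX3 deviated by 4.09 in the tagged FLAG IPs of set 1 and 4.65 in those of set 2, and COX1 by 2.74 and 2.77, with no test.

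Actin, the subunit of thin filaments and the cell cortex, was on the upper side through act-4 and act-3. act-4 had 6.94, 8.15 and 9.34 in the MYC IPs and 8.30, 7.40 and 6.63 in the N2 IPs, against 12.44, 12.04 and 12.66 in input. It lay above by 1.90 and 1.77, and act-3 by 1.28 and 1.02, although the spline did not call act-3. They were the 2 called of the 11 actin and tubulin members, where 1.54% of all members were above. Both were among the 6 at input log2 11 or more, where 11.7% of all members as abundant were above. The gut actin act-5 lay at -0.61 and was not called. None of the tubulin members was called.

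Histones are the proteins that DNA winds around. Of their 33 members with a single symbol, 4 were above (hil-7, his-2, his-42 and his-3), where 1.54% of all members were, and none below. The list median was 0.01. Another 21 members carry several histone symbols, with 0 above and 0 below. hil-7, a linker histone, had 4.39, 4.38 and 4.80 in the MYC IPs and 4.81, 4.37 and 4.69 in the N2 IPs, against 6.61, 6.69 and 6.62 in input. Its values hardly changed between control arrays whose overall signal differed widely. The other hil-7 probe set lay over the curve by 0.36 and 0.44 and was not called. Leaving out probe sets with a suffix for shared sequence left 0 of 9 histone members above.

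Major sperm protein drives the crawling of nematode sperm and is encoded by a large family of near-identical genes. Of 23 members with a single msp symbol, 5 were above (msp-78, msp-76, msp-77, msp-55 and msp-36), and of 8 with several symbols that include an msp gene, another 5 were. The signal of such probe sets cannot be assigned to single genes, and all single-symbol msp members called carry a suffix for shared sequence. msp-78, the highest, had 7.30, 8.64 and 10.31 in the MYC IPs and 9.08, 8.29 and 7.57 in the N2 IPs, against 13.22, 13.24 and 13.62 in input. With the spline 2 of the 23 and 0 of the 8 were above. The whole sperm list, 40 members, had a median of 0.16, with the 5 msp members above and none below. All 5 were among its 20 members at input log2 11 or more, where 11.7% of all members as abundant were above.

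**Figure D2:**
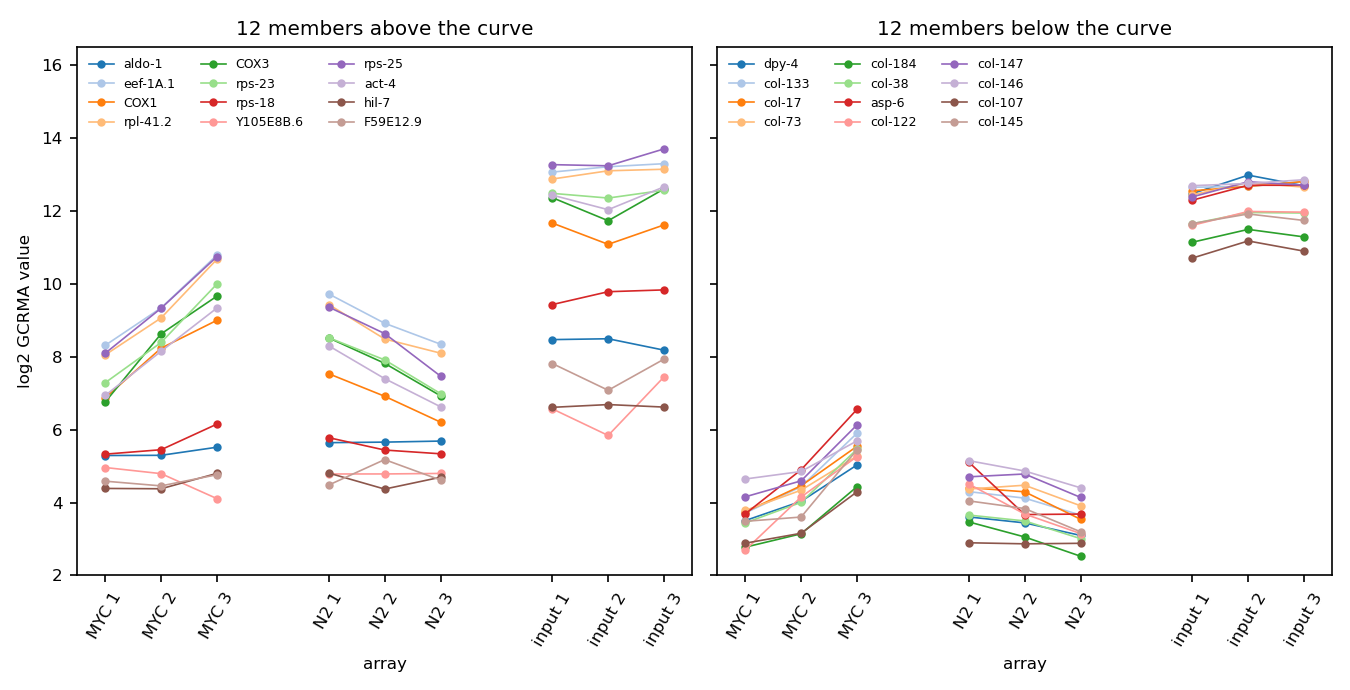
Log2 GCRMA values (vertical axis) on each MYC IP, N2 IP and input array (horizontal axis) of 12 named members above the curve (left) and 12 below it (right); lines join the arrays of a group to follow a gene and imply no order. Every control IP value lies under the input values of its gene; the members on the right reached at most 6.56 on a control IP (asp-6), and eef-1A.1 on the left reached 10.79.

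Cuticle collagens were the other pole. They are short, repetitive secreted proteins that the hypodermis makes in bursts at each moult and that are cross-linked into the cuticle. Of 84 members with a single collagen symbol, 25 were below the curve, where 0.707% of all members were, and 0 above, and the median deviation was -0.54. Another 12 members below carry several collagen symbols, so that 37 of the 49 members below were collagens. Of the 84, 70 had a deviation under 0. The spline called 22 below and the straight line, which passes under the curve among bright members, 7. Without N2 replicate 1 the count was 16.

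The collagens at input log2 11 or more carried this. Of these 36 members, 21 were below (8.47% of all 472 members as abundant were) and the median deviation was -1.25. dpy-4, whose loss makes worms short and fat, was the farthest from the curve. It had 3.50, 4.03 and 5.03 in the MYC IPs and 3.61, 3.44 and 3.10 in the N2 IPs, against 12.48, 12.98 and 12.69 in input. Every control array of dpy-4 was more than 7 units under every input. The deviation was -2.43 ± 0.26 (SE) in the MYC IPs and -2.63 ± 0.26 in the N2 IPs, with adjusted p = 0.000878 and 0.00051 (limma).

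col-133 had 3.71, 4.44 and 5.90 in the MYC IPs and 4.30, 4.12 and 3.66 in the N2 IPs, against 12.65, 12.67 and 12.81 in input, and deviated by -1.93 and -1.98. col-17 had 3.75, 4.46 and 5.54 in the MYC IPs and 4.41, 4.29 and 3.54 in the N2 IPs, against 12.55, 12.67 and 12.81 in input, and deviated by -1.99 and -1.89. col-73 followed with -2.05 and -1.66. These 3 and dpy-4 carry the suffix for shared sequence, and each may pool signal of several collagens. col-184, whose probe set 188245_at has no such suffix, had 2.78, 3.14 and 4.44 in the MYC IPs and 3.47, 3.06 and 2.53 in the N2 IPs, against 11.14, 11.50 and 11.29 in input.

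The deviations of col-184 were -1.70 ± 0.12 and -1.68 ± 0.12 (SE), with adjusted p = 0.000198 and 0.000161 (limma). Its value on N2 array 3 was the lowest of that array, so the N2 deviation is a bound there. col-122, also without the suffix, deviated by -1.65 and -1.39. The collagens col-38, col-147, col-146, col-107 and col-145 lay between -1.78 and -1.25 in each kind. As low lay 1 probe set of sqt-3 (mean -1.56) and col-125 (mean -1.43), which were over the straight line, by 0.10 and 0.01. The call of col-146 rested on single arrays: it was lost without N2 replicate 1, N2 replicate 2, N2 replicate 3 or MYC replicate 2, with mean deviations of -1.50 to -1.35. Leaving out all probe sets with a shared-sequence suffix left 5 of 35 collagen members below and a median of -0.30. Probe sets that share sequence thus made up most of the count.

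Collagens were not uniformly low. Of the 84, 14 had a deviation over 0, the highest being col-20 at 0.91 and col-173 at 0.89, neither called. rol-6, whose mutants roll, was at 0.59. Among those at log2 11 or more, 2 were over 0, col-106 at 0.23 and col-80 at 0.44. In the tagged FLAG IPs the collagen list had a median of -1.29 in set 1 and -1.58 in set 2, so that collagens were low against input there as well.

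The 12 non-collagen members below were few and mixed. Their 11 single-symbol members included 3 of the aspartyl proteases of the gut, asp-6, asp-1 and asp-5. asp-6 had 3.69, 4.90 and 6.56 in the MYC IPs and 5.11, 3.67 and 3.68 in the N2 IPs, against 12.30, 12.71 and 12.71 in input, and deviated by -1.41 and -1.71. In the tagged FLAG IPs it was on the other side of the curve, by 0.71 in set 1 and 0.99 in set 2. The intestine list as a whole had 36 of 46 members under the curve, against 4190 of all 6930, with 3 called below (the 3 asp genes), 0 above and a median of -0.36. The 3 were among its 17 members at input log2 11 or more, where 8.47% of all members as abundant were below. Without input replicate 2, 1 of the intestine members was called below.

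Of the others, crt-1, the calcium-binding ER chaperone calreticulin, deviated by -1.04 and -1.55, and vha-12, a subunit of the proton pump of acidic compartments, by -1.25 and -1.42. cut-2, for cuticlin, a cuticle protein that is not a collagen, had 2.66, 2.52 and 3.28 in the MYC IPs and 2.52, 2.51 and 2.59 in the N2 IPs, against 9.96, 10.49 and 10.30 in input. It was near the lowest value on most control arrays, so its deviations of -1.27 and -1.22 are bounds there. pck-2, epic-1 and ndub-3 were the other named genes on this side, with deviations between -1.30 and -1.04 in each kind. vha-12, ndub-3 and unc-54 were within 0.1 of the lowest value on 1 control array each. The muscle genes unc-54, the major myosin heavy chain, at -1.07 and -1.21, and unc-15, paramyosin, completed the list (2 of 37 muscle members, where 0.707% of all members were below), and 1 of this pair was called without input replicate 2 or without MYC replicate 3.

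Probe sets of a gene often disagreed, which limits what a call says of the gene. Of the 93 genes above the curve, 42 had more than 1 member, and in 2 of these all members were called. The 45 other probe sets of those genes had a median deviation of 0.02, with 23 over 0 and 22 under it. Of the 35 genes below, 8 had more than 1 member and in 1, col-147, all were called. The 8 other probe sets of those genes had a median of -0.55.

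pab-1, the poly(A)-binding protein gene, shows the size of such gaps. Its probe set 172007_x_at had 5.62, 6.62 and 8.44 in the MYC IPs and 6.68, 6.43 and 5.56 in the N2 IPs, against 11.50, 11.44 and 11.86 in input, and lay above by 1.46 and 1.28. Its probe sets 174670_s_at and 194118_s_at, brighter in input, lay under the curve by means of -0.96 and -0.73. unc-15 was split likewise, with 190436_at below the curve at -1.36, 175568_at at 0.35 and 194170_s_at at 0.85. Which region of the transcript each probe set reads is not used here.

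**Figure D3:**
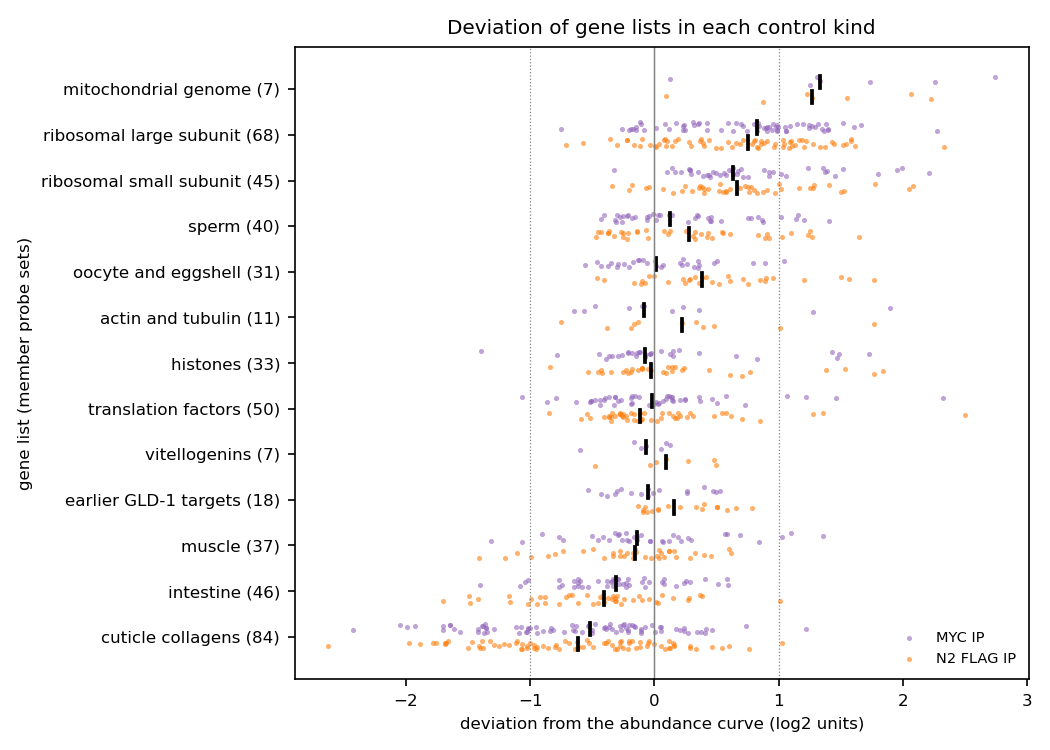
Deviation from the abundance curve (horizontal axis, log2 units) of each member of 13 gene lists (vertical axis, number of members in brackets), in the MYC IPs (upper row of each list) and the N2 IPs (lower row); black bars are medians and dotted lines mark 1 unit. The mitochondrial genome and both ribosomal lists lie to the right and cuticle collagens to the left in both kinds.

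The remaining lists had few or no members called. Vitellogenins, the abundant yolk proteins of the intestine, had 0 called of 7 members and a median of -0.03: vit-2 had 3.60, 5.30 and 6.42 in the MYC IPs and 5.29, 4.78 and 4.13 in the N2 IPs, against 11.31, 11.01 and 11.68 in input. The lists of chaperones (62 members, median -0.03), the proteasome (39, -0.26) and ubiquitin (3, 0.55) had none called. The chaperone list does not hold crt-1, which was called below the curve. Glycolysis had a median of -0.22 over 20 members, with 1 probe set of aldo-1 alone above (5%), where 1.54% of all members were. Of 28 neuron members, the peptide genes nlp-31 and nlp-27 were above (7.14%). Of 29 germline RNA-protein granule members, the Y-box protein gene cey-4 was (3.45%). The earlier known GLD-1 targets had a median of 0.00 over 18 members and none called, from -0.26 for pal-1 to 0.64 for spn-4.

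Members above the curve differed in how their values moved across the 6 control arrays. In 60 of the 107 the values spanned more than 2 units over the arrays, as the amount of signal on the arrays did, in 38 they spanned less than 1 unit, and in 9 from 1 to 2 units. The 60 had input means of 10.12 to 13.54 and control IP means of 4.98 to 9.24, and held 28 of the 29 ribosomal members above. The 38 had input means of 6.07 to 9.77 and control IP means of 3.82 to 5.58, and held 1 ribosomal member, rps-18. This split was made after the values were seen and has no test.

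let-607, for a transcription factor of the CREB family, is one of the 38 that stayed level. It had 5.09, 5.09 and 5.07 in the MYC IPs and 5.13, 5.13 and 5.10 in the N2 IPs, against 9.13, 8.93 and 9.70 in input, a span of 0.06 units over the control arrays. Y94H6A.3 spanned 0.04, with 4.18, 4.17 and 4.14 in the MYC IPs and 4.16, 4.17 and 4.19 in the N2 IPs, against 6.26, 6.90 and 7.33 in input. A probe set of aldo-1, for the glycolytic enzyme aldolase, was the highest of all members by deviation, 2.25 and 2.65. It had 5.29, 5.30 and 5.52 in the MYC IPs and 5.64, 5.66 and 5.69 in the N2 IPs, against 8.47, 8.49 and 8.18 in input. It carries the suffix for shared sequence, and the other aldo-1 probe set lay at -0.20 and -0.06.

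The spans had a median of 0.67 units in the 38, against 2.86 units in the 60. Over all 6930 members the median span was 0.64, so a small span was not particular to the 38. Among the 764 members with a control IP mean of log2 4 or more it was 2.57, and 57 of those spanned under 1 unit. rps-18, with 5.33, 5.45 and 6.15 in the MYC IPs and 5.78, 5.44 and 5.34 in the N2 IPs, against 9.43, 9.79 and 9.84 in input, still rose and fell with the signal of the arrays. The other rps-18 probe set, brighter in input at 12.85, lay at 0.29 and -0.05 and was not called. Of the 38, 25 carry the suffix for shared sequence (65.8%), as did 40 of the 60 (66.7%), against 48.3% of all members. The share was 68.4% among members at input log2 11 or more. It was 61.5% among the 764 members with a control IP mean of log2 4 or more, and 59.6% among those of them that spanned under 1 unit. The shares in the 38 and the 60 were thus near those of comparable members. The 38 include ftn-2, a ferritin subunit, tra-1, the terminal regulator of sexual fate, sin-3, a histone deacetylase scaffold, and cul-2, the core of a ubiquitin ligase, as well as hil-7, his-42, F59E12.9 and Y105E8B.6. Every IP received the same amount of mouse RNA, and its part in these values was not tested.

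**Figure D4:**
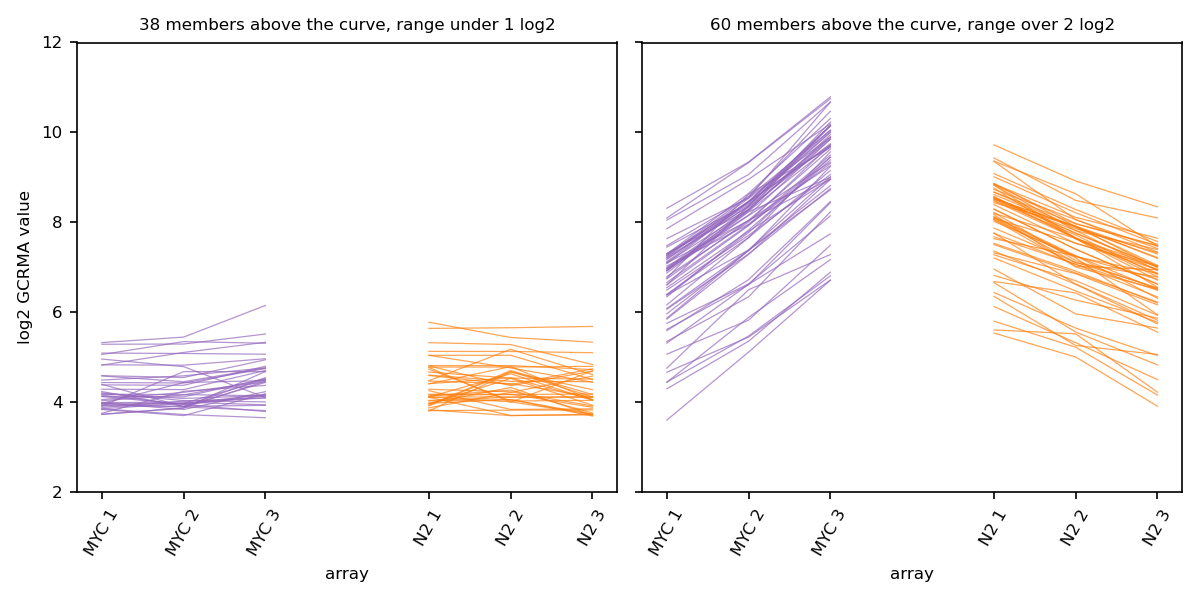
Log2 GCRMA values (vertical axis) on each control IP array (horizontal axis) of the 38 members above the curve whose values spanned under 1 unit (left) and of the 60 whose values spanned over 2 units (right); each line is a probe set and implies no order of arrays. The left panel holds steady values mostly between 4 and 5, while each probe set in the right panel spans 2.22 (icd-1) to 3.53 (rpl-27A) units.

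Among the 60 that moved with the array were several with no list of their own here. nap-1, a histone chaperone, had 5.35, 6.35 and 8.23 in the MYC IPs and 6.96, 5.97 and 5.65 in the N2 IPs, against 11.27, 11.61 and 11.67 in input, and lay above by 1.30 and 1.32. rab-11.1, a GTPase of recycling endosomes, lay above by 1.46 and 1.30, let-70, a ubiquitin-conjugating enzyme, by 1.02 and 1.59, and hmg-1.1, a chromatin protein, by 1.15 and 1.14. In all, 48 of the 107 were in no list.

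The rule did not use gene length or the kind of probe set. The genes of the members above had a median span of 809 bp in RefSeq (WBcel235 assembly), those below 1101.5 bp, members at input log2 11 or more 1048.5 bp and all members 2386 bp, so that the abundant members as a whole also came from short genes. Probe sets with the suffix _x_at, which share probes with other transcripts, made up 32.7% of those above, 61.2% of those below, 27.1% of members at log2 11 or more and 7.82% of all members. These shares are descriptions and were not tested.

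The 2 kinds of control were then compared directly, with the MYC IPs over the N2 IPs. They differ in antibody, strain and IP set at once, so the part of each cannot be told apart. None of the 6930 members was called different (0%), by limma with adjusted p under 0.05 and at least 1 unit. At an unadjusted p under 0.05, 275 were higher in the MYC IPs and 251 lower, and the smallest adjusted p was 0.0558. Over the 917 members at input log2 10 or more, where the curve and the spread are those of bright transcripts alone, 14 were called (1.53%), 4 higher and 10 lower in the MYC IPs, and over the 3346 at log2 8 or more 13 were (0.389%).

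clec-87, gld-1, cyb-3 and sip-1 had the largest differences toward N2. clec-87, a C-type lectin gene, had 4.84, 6.68 and 8.01 in the MYC IPs and 8.02, 7.35 and 6.48 in the N2 IPs, against 12.23, 12.44 and 12.46 in input. The raw values overlap, but on each array's own curve the MYC arrays deviated by -0.08, 0.57 and 0.31 and the N2 arrays by 1.70, 1.71 and 1.43. The difference was -1.35 ± 0.18 (SE), with adjusted p = 0.0983 over all members and 0.0122 over those at log2 10 or more (limma). sip-1, a small heat shock protein of the germline and embryo, differed by -1.21 ± 0.13 (adjusted p = 0.0558 and 0.0122) and cyb-3, a B-type cyclin, by -1.23 ± 0.24 (adjusted p = 0.196 and 0.0267). clec-88, another lectin gene, cey-2, for a Y-box protein, htz-1, for the histone variant H2A.Z, and gln-5, for a glutamine synthetase, were also lower among members at log2 10 or more.

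gld-1 encodes the RNA-binding protein that the study precipitated, and its transcript had 2.98, 3.27 and 4.69 in the MYC IPs and 5.32, 4.88 and 3.67 in the N2 IPs, against 10.01, 9.04 and 10.42 in input. The difference in deviation was -1.25 ± 0.28 (SE), with adjusted p = 0.267 over all members (limma), and 0.0382 over those at log2 8 or more. In the tagged FLAG IPs gld-1 deviated by 4.20 in set 1 and 5.20 in set 2, and clec-87, cyb-3 and sip-1 by 3.07 to 5.97. These 4 genes were thus far above the curve in the tagged FLAG IPs, and lower in the MYC than in the N2 control IPs.

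The oocyte and eggshell list had 27 of its 31 members lower in the MYC IPs, where 3553 of all 6930 members were. Its median difference was -0.40, against 0.00 over all members. Its 10 members with an unadjusted p under 0.05 were all lower in the MYC IPs, where 251 of 6930 were. cpg-1, for an eggshell proteoglycan, had 4.55, 6.30 and 7.76 in the MYC IPs and 7.34, 6.51 and 5.64 in the N2 IPs, against 11.45, 11.53 and 11.76 in input, and pos-1, a maternal RNA-binding protein gene, was at 0.89 and 1.77. The earlier GLD-1 targets had a median difference of -0.23, with 15 of 18 lower in the MYC IPs. cbd-1, for an eggshell chitin-binding protein, was the one member of the oocyte list above the curve in both kinds, by 1.04 and 1.50, and its call was lost without input replicate 1 or without MYC replicate 2.

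Toward the MYC IPs the largest differences among probe sets with a single symbol were those of the cuticle collagens sqt-3 and col-97. sqt-3 had 3.84, 5.18 and 7.55 on its probe set 174910_at in the MYC IPs and 3.46, 3.09 and 3.11 in the N2 IPs, against 11.38, 11.71 and 11.82 in input. The difference was 1.81 ± 0.33 (SE), with adjusted p = 0.174 over all members and 0.0153 at log2 10 or more (limma). Its other probe set, 172820_x_at, lay below the curve in both kinds, by -1.70 and -1.41. col-97 differed by 1.03 ± 0.18, with adjusted p = 0.16 and 0.0267, and its second probe set by -0.07. The other members called higher in the MYC IPs at log2 10 or more have several symbols, pud-1.1;pud-1.2 with a difference of 1.12 ± 0.25 (SE) there (adjusted p = 0.0352) and pud-2.1;pud-2.2 with 1.09 ± 0.19 (adjusted p = 0.0153, limma). Y22D7AL.10 and R06C1.4 were the next genes with a single symbol, at 0.93 and 0.92, with neither called. The intestine list had 38 of 46 members higher in the MYC IPs, with a median of 0.14, and the muscle list 24 of 37, with 0.05. Of all 6930 members, 3377 were higher in the MYC IPs, so the muscle list lay closer to all members than the intestine list did.

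**Figure D5:**
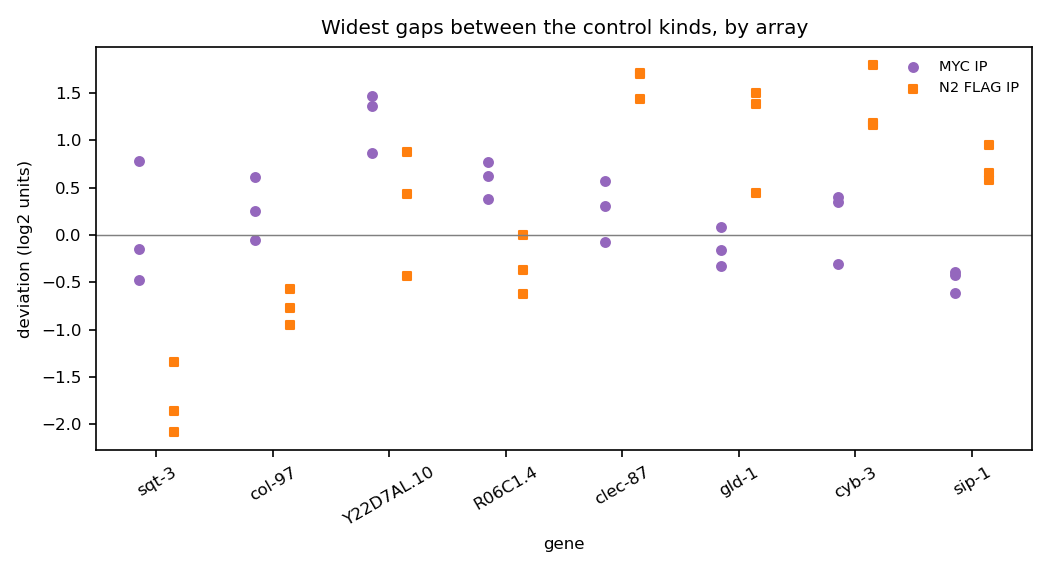
Deviation from the curve (vertical axis, log2 units) on each MYC IP array (circles) and N2 IP array (squares) of the 8 genes with the widest gaps between the kinds (horizontal axis). Of these genes, Y22D7AL.10 alone has arrays of the 2 kinds that overlap. The genes were picked for wide gaps, which itself favours arrays that do not overlap, and none was called over all members.

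Signal over that of input was looked for in all 22548 probe sets, members or not. In the control IPs 2 were higher than in input by at least 1 unit with adjusted p under 0.05 (0.00887%), against 10800 lower. Neither has a gene symbol. 183150_s_at had 3.72, 4.04 and 3.99 in the MYC IPs and 3.89, 3.96 and 3.90 in the N2 IPs, against 2.24, 2.68 and 2.64 in input, a difference of 1.40 ± 0.12 (SE) with adjusted p = 1.75e-05 (limma). 183319_at averaged 3.39 in the control IPs and 2.28 in input, a difference of 1.11 ± 0.16. Its inputs, at 2.29, 2.28 and 2.27, lay under the lowest value of every control IP array, 2.49 to 2.53. The same held for input 1 of 183150_s_at, so both differences hold part of that gap.

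rrn-3.1, a gene of the large ribosomal RNA, was next at 0.96, with adjusted p = 0.0643. It had 3.12, 2.57 and 4.61 in the MYC IPs and 3.25, 3.08 and 2.57 in the N2 IPs, against 2.24, 2.28 and 2.21 in input, so it was near the lowest value on some arrays. pqn-29 at 0.83, srab-7 at 0.76, R13A1.1 at 0.72 and amt-3 at 0.66 followed. Every input of rrn-3.1, srab-7 and amt-3, and input 1 of pqn-29, lay under the lowest value of every control IP array, 2.49 to 2.53. The differences of these 4 genes thus hold part of that gap as well. Without a minimum size 8891 probe sets were higher with adjusted p under 0.05, a count that holds the lowest values of the arrays, which differ between IPs and inputs. No probe set under log2 6 in input reached log2 5 in the control IPs, where the highest was 4.79.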

How the data were processed

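Affymetrix C. elegans arrays of whole young adult worms were used: 3 anti-MYC IPs of the tagged strain, 3 anti-FLAG IPs of N2, 3 inputs and, for values beside named genes, 6 tagged FLAG IPs. Sample titles gave group and replicate for each array, and 0 value columns lacked a sample. Per the labels, RNA was eluted from beads with TRIzol, IPs then received 10 µg of RNA from mouse brain, and amplification was a single round from 5 µg of input RNA or an equal share of an IP. The deposited values are log2 values per probe set and array that the authors made with GCRMA, a background adjustment and summary, per the submitters' processing notes; its version and the normalization between arrays are not given in the sources used here. GCRMA gives many dim probe sets 1 lowest value per array, which compresses differences among them. The unit gives no read depth, and precision is limited by how many arrays there are.

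The 77 array controls among 22625 probe sets did not enter. The platform annotation named 6613 of the 6930 members by 1 symbol, 232 by several and 85 by none, and Entrez IDs matched 20701 probe sets to RefSeq genes, which changed 0 symbols. Genes were named from probe sets with 1 symbol.

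Each array's member values were fitted by loess (span 0.5, degree 1) on the input mean. Deviations were tested by limma's lmFit and eBayes (version 3.58.1, R 4.3.3; 4 residual and 3.37 prior degrees of freedom), as group means against 0 and as MYC minus N2, two-sided, with Benjamini-Hochberg adjustment over the 6930 members. A call needed adjusted p under 0.05 and 1 log2 unit, in both kinds. The input mean was taken as known, which leaves its error out of these p-values; an alternative put it in. The comparison with input covered all 22548 probe sets (6 residual degrees of freedom). Errors of deviations and differences are standard errors of the fit. The fits were tested on simulated data.

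Named genes were the 12 farthest on each side called in both kinds with all 6 arrays on that side and the same sign from the straight line, the 4 largest differences between kinds in each direction, the 6 genes highest over input, gld-1 and the extremes of each of 21 lists; others given as examples were chosen after their values were seen. Lists are described by counts and medians with no test. Members, lists and tests were chosen with earlier results of these data known. Sequences of probes, transcripts and promoters were not used here. Alternatives were other curves, thresholds, input minima, probe set choices, normalizations and fits, the replicate number as a block, and each array left out.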

Additional observations from a re-analysis of the deposited data

How the results depend on the processing

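Against 107 members above and 49 below the curve in both kinds, the straight line gave 245 and 22. A curve over all probe sets gave 248 and 11, no minimum size 683 and 935, and leaving out shared-sequence suffixes 38 and 9. Members at input log2 8 or more gave 65 above and those at log2 10 or more 46, and 1 probe set per gene gave 25 below; the last 4 settings test fewer probe sets. For other shifts the cause was not tested. Leaving out 1 array gave 101 to 114 above and 39 to 55 below. Members differing between MYC and N2 IPs were 0 as reported, 13 at log2 8 or more, 14 at log2 10 or more, 6 with input error in the fit, 1 after quantile normalization, and 0 to 2 with 1 array left out (2 without input replicate 3). The slope was 0.722 and 1.13 at the higher input minima, and 0.395 to 0.482 with 1 array left out. Probe sets higher in control IPs than in input, 2 as reported, were 1 without shared suffixes, 0 with 1 probe set per gene (where 183150_s_at and 183319_at, with no symbol, drop out), 1306 after quantile normalization, which forces IP and input arrays to a common distribution, and 2 to 3 with 1 array left out.

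Same-numbered MYC and N2 arrays had correlations of -0.27, 0.03 and -0.19 between their residual deviations. The highest were 0.24 for MYC array 1 with N2 array 3 and 0.24 for MYC array 3 with N2 array 1. Residuals of 3 arrays per kind cannot tell whether same-numbered arrays share more than a number. With the replicate block the counts were 106 above, 48 below, 0 differing and 2 higher than input. Of the mean deviations of named genes under the alternatives, 497 kept their direction and side of the threshold and 24 kept their direction but not their call, 9 of them under the straight line and 9 with a curve over all probe sets. Of the differences between kinds, 161 kept their side and 14 passed the threshold; no direction reversed. Members near an array's lowest value carry only a bound, which limits deviations below the curve among dim transcripts.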
